A study of Equus caballus with 78 samples.

Results

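Among the plasma libraries of an equine osteoarthritis series, 3 of 26 stood apart by how much microRNA they held, and their microRNA make-up is described against that of the remaining plasma. The series sequenced small RNA of extracellular vesicles from 4 horses (numbered 2, 4, 6 and 8) sampled repeatedly at time points 0, 10, 35, 42, 49, 56 and 63, for which the labels give no unit. It holds 78 libraries, namely 26 of plasma, 26 of synovial fluid from a joint called OA and 26 from a joint called CTRL, and its stated purpose was pairwise comparison of longitudinal vesicle samples. Every horse belonged to the osteoarthritis model, and plasma is a whole-animal sample with no OA or CTRL side. How the disease was induced, and any strain, age or treatment of the animals, is not given in the sources used here. MicroRNA-rich libraries were chosen by their measured microRNA percent, over 5% of reads, and the 23 others lay below that value. Because that split used a measured value, every rich against other difference below is a description without a test. The rich set was horse 2 at time point 0, horse 6 at time point 10 and horse 8 at time point 63. It had 1 library each of 3 horses, at 3 different time points, with none from horse 4, so horse and time point cannot be told apart from library.

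MicroRNAs are short RNAs that guide Argonaute proteins to matching messenger RNAs and repress them. In plasma they travel inside extracellular vesicles, the small membrane-enclosed packets shed by cells, but also in protein and lipoprotein complexes that can be recovered along with vesicles. Blood cells are a large source. miR-486-5p and miR-451 are the most abundant microRNAs of red blood cells and are widely used to track red cell RNA in plasma, whereas miR-126 is typical of endothelium and platelets, and miR-221, miR-222 and miR-21 are made by many cell types, platelets, endothelium and fibroblasts among them.

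MicroRNA made up 5.86% of reads in horse 2 at time point 0, 13.1% in horse 6 at time point 10 and 18.6% in horse 8 at time point 63, against 0.0882% to 1.39% (median 0.230%) in the 23 other plasma libraries. The 95% Wilson intervals of the rich shares ran from 5.84% to 5.88%, from 13.1% to 13.2% and from 18.6% to 18.7%. Such intervals cover counting error only, since reads amplified by PCR without molecular identifiers are not independent molecules. Just outside the threshold stood horse 2 at time point 49 with 1.39% and at time point 35 with 1.37%, and horse 6 at time point 42 with 1.24%, so the lowest rich share was 4.22 times the highest other share. Library totals were of one order, 4435210 to 10010047 reads in the rich libraries and 3742618 to 11507627 in the others. MicroRNA reads were not, with 260030, 613396 and 1865513 in the rich libraries against 3916 to 78857 (median 13070) in the others, and the rich libraries held 84.1% of all plasma microRNA reads. Synthetic UniSp spike-ins, which serve as controls for RNA handling, took 14.1%, 6.15% and 2.75% of the rich libraries and a median of 27.9% (0.886% to 71.7%) of the others. Among the rich libraries the spike-in share was lowest where microRNA was highest, while 2 other libraries, horse 8 at time point 49 with 0.886% and horse 6 at time point 49 with 2.99%, were also low without being rich. Reads outside the listed microRNAs and spike-ins made up 78.6% to 80.7% of the rich libraries and 28.1% to 98.8% of the others, and their identity was not analysed here. In a bulk fluid sample, more vesicles and more microRNA per vesicle cannot be told apart.

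**Figure D1:**
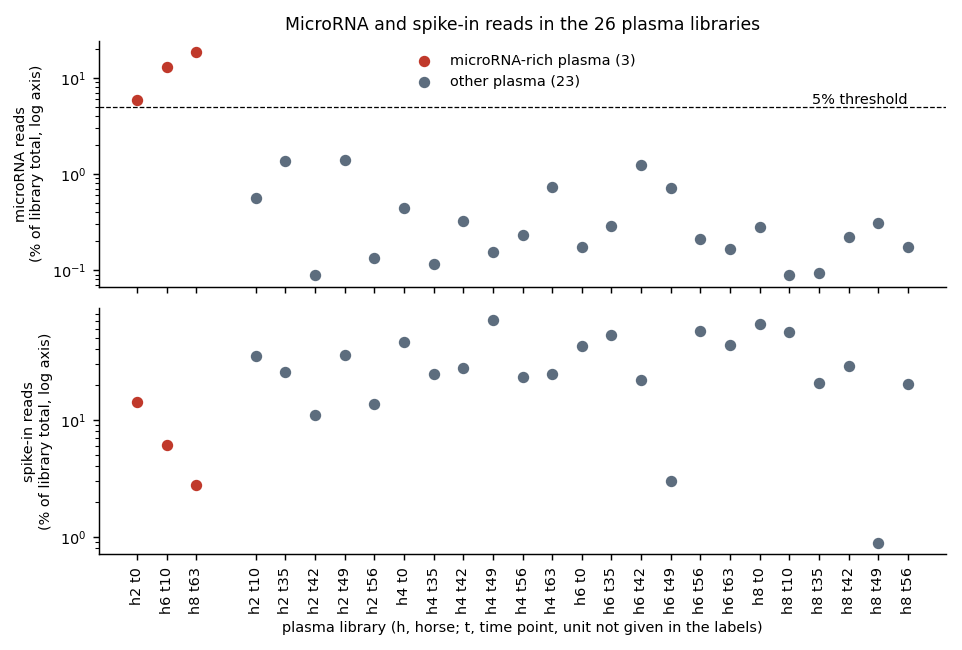
MicroRNA reads (top) and spike-in reads (bottom) as a percent of the library total, on log axes, for each plasma library, with the 3 microRNA-rich libraries in red at the left and the 23 others in grey, ordered by horse (h) and time point (t). The rich libraries lie at 5.86% to 18.6% microRNA, all above the dashed 5% threshold, and no other library exceeds 1.39%.

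The horse's other samples did not share the high share. Plasma of horse 2 ran from 0.0882% to 1.39% at its other time points, that of horse 6 from 0.165% to 1.24%, and that of horse 8 from 0.0896% to 0.309%. Nor did other horses at the same time point. At time point 0 they had 0.175% to 0.444%, at time point 10 they had 0.0896% and 0.565%, and at time point 63 they had 0.165% and 0.732%. The synovial fluid drawn from the same horse at the same time point was not uniformly high either. For horse 2 at time point 0 the OA and CTRL joints held 0.229% and 0.278% microRNA, ranks 49 and 44 of 52 synovial libraries counted from the highest. For horse 6 at time point 10 they held 0.681% and 0.750% (ranks 15 and 8), and for horse 8 at time point 63 they held 0.793% and 0.0712% (ranks 7 and 52).

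The 3 rich libraries resembled each other although they came from different horses and time points. Levels are given as counts-per-million (CPM), the reads of a microRNA scaled to the sum of microRNA reads of its library, unless another scale is named. Across the 91 microRNAs with a mean of at least 500 CPM over the 26 plasma libraries, the Pearson correlation of log2(CPM + 100) between rich libraries was 0.885 to 0.978 for the 3 pairs. Between a rich and another plasma library it had a median of 0.467 (0.222 to 0.805, 69 pairs), and between 2 other libraries a median of 0.508 (0.270 to 0.813, 253 pairs). These are correlations across microRNAs, which are not independent replicates, and the shallow libraries carry more counting error. Among the 20 most abundant microRNAs of the rich libraries, the highest of the 3 values exceeded the lowest by a median of 1.23 times, and the exception was miR-486-5p, at 76.8 times. miR-21 led all 3 rich libraries with 23.4%, 24.4% and 25.1% of microRNA reads. miR-486-5p led 21 of the 23 others, and miR-21 led the remaining 2.

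The rich libraries also held more kinds of microRNA. Of 690 listed horse microRNA names, 234 had a read in plasma, 224 of them in the rich libraries and 167 in the others. Each rich library detected 97, 144 and 215 microRNAs, against 46 to 76 (median 64) in each other library. With every library reduced by calculation to 3916 microRNA reads, the smallest number in plasma, 84.2, 117 and 125 were expected in the rich libraries, against 34.4 to 69.3 (median 48.0) in the others. The groups did not overlap at this equal number of microRNA reads. That number includes miR-486-5p, which took 0.0582% to 4.47% of the reads in the rich libraries and 12.8% to 77.4% in the others, so fewer reads were left for the remaining microRNAs in the others, and the calculation treats reads as independent molecules. All 3 rich libraries shared 89 microRNAs, whereas 17 were read in every one of the 23 others.

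**Figure D2:**
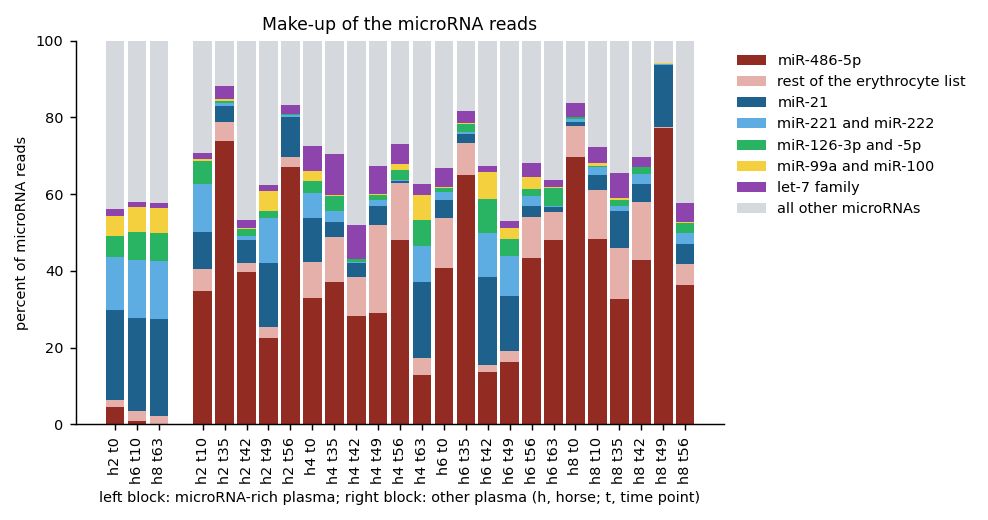
Percent of microRNA reads taken by miR-486-5p, the rest of the erythrocyte list, miR-21, miR-221 with miR-222, both arms of miR-126, miR-99a with miR-100, the let-7 family and all other microRNAs, stacked to 100% for each plasma library. The 3 microRNA-rich bars at the left are nearly alike, with 0.0582% to 4.47% miR-486-5p, against 12.8% to 77.4% in the 23 other bars.

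Among the 91 microRNAs, 3 had all 3 rich values above all 23 others (3.30%), namely miR-21, miR-221 and miR-125a-5p, and 1 had them all below (1.10%), namely miR-486-5p. A rich library set only against the other plasma of its own horse gave the same 3 above (3.30%) and the same 1 below (1.10%) in all 3 horses. That plasma is part of the 23 others, so these microRNAs had to appear again. Only further ones could have been added, and none was. Against the median of the others, 54 microRNAs (59.3%) were higher in all 3 rich libraries and 10 (11.0%) were lower in all 3. Some of those medians stand for a few reads, such as 77.7 CPM for miR-199a-5p. By mean CPM, 42 were higher and 46 lower in the rich libraries, with a median log2 ratio of -0.36, and 3 had no read in any rich library. Some low ratios rest on a single other library. miR-184, for example, reached 335802 CPM in horse 2 at time point 42 and was at 577, 0 and 46.6 CPM in the rich libraries.

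miR-21, a growth-promoting and inflammation-responsive microRNA found in most cell types, had 233673, 244296 and 251079 CPM in the rich libraries of horses 2, 6 and 8, against 3520 to 230011 CPM (median 48641) in the other plasma. The rich values lay close together, and the nearest other value was 230011 CPM in horse 6 at time point 42. The mean was 243016 ± 8773 CPM in rich libraries (SD, n = 3) and 78268 ± 63522 CPM in the others (SD, n = 23), a 3.10-fold difference.

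miR-221, which with its cluster partner miR-222 restrains the cell cycle inhibitor p27 and the receptor KIT, had 113372, 114169 and 120135 CPM in the rich libraries, against 965 to 99225 CPM (median 16016) in the others. The means were 115892 ± 3696 CPM and 27594 ± 31532 CPM (SD, n = 3 and n = 23), a 4.20-fold difference. miR-222 itself was at 24613, 36430 and 30964 CPM in rich libraries and overlapped with the others, which reached 50850 CPM.

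miR-125a-5p, a relative of the lin-4 microRNA of worms, had 4842, 5445 and 6116 CPM in the rich libraries, against 0 to 3145 CPM (median 86.6) in the others. Nearly all of its other-plasma reads came from 1 library: 248 of 275 reads lay in horse 6 at time point 42, 8 libraries had none, and 14 had 1 to 3 reads. Its mean over the others was 239 CPM, so it entered the 91 through its level in the rich libraries, and its place in the count above is no support for a difference. The ratio of means was 22.8-fold, or 4.51 on the log2 scale, and 5.67 on the log2 scale without that library.

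Several abundant microRNAs were higher than the other median in all 3 rich libraries but overlapped with a few of the others. miR-99a, which represses the mTOR kinase, had 40830, 51102 and 50383 CPM in the rich libraries, against 152 to 52957 CPM (median 1295) in the others, 3 of which exceeded the lowest rich value. miR-126-3p, the endothelial and platelet microRNA, had 37861, 50383 and 51699 CPM, against 519 to 65308 CPM (median 1295), and 4 of the others exceeded the lowest rich value. miR-29a, which represses collagen messenger RNAs, had 27493, 24522 and 24990 CPM, against 75.8 to 54644 CPM (median 597). For these microRNAs most of the other libraries were low, and a few reached the level of the rich libraries. miR-103 and miR-107a, near-identical sequences which are not read as independent, differed in counts by a median of 3.92% (at most 7.75%) in the rich libraries and of 0% (at most 92.9%) in the others. They had 35017 to 37473 and 33926 to 34569 CPM in the rich libraries, against 485 to 35550 and 223 to 35550 CPM in the others.

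Of 7 ratios between microRNAs of the same library, 4 without a red cell member are given first. miR-126-3p exceeded miR-126-5p, the other arm of the same hairpin, by 2.17, 2.29 and 2.38 times in the rich libraries, against 0.0180 to 636 times in the others. miR-99a exceeded miR-100 by 3.61 to 4.04 times in the rich libraries, against 0.0242 to 274 times in the 20 others with miR-100 reads. miR-21 exceeded miR-221 by 2.06 to 2.14 times in the rich libraries, against 0.972 to 62.0 times in the others, and miR-221 exceeded miR-222 by 3.13 to 4.61 times, against 0.183 to 47.5 times. The low read numbers of the other libraries widen such ratios. Ratios with a red cell microRNA varied more within the rich set. miR-486-5p over miR-21 was 0.191, 0.0312 and 0.00232 in horses 2, 6 and 8, against 0.589 to 136 in the others, and miR-451 over miR-23a was 0.0610, 0.0207 and 0.00140, against 0 to 36.3. miR-486-5p over miR-451 was 44.5, 25.0 and 23.1 in the rich libraries, against 2.17 to 8939 in the 21 others with miR-451 reads.

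The red cell microRNA miR-486-5p was lower in the rich libraries, with 44672, 7626 and 582 CPM in horses 2, 6 and 8, against 127884 to 773671 CPM (median 398110) in the others. The groups did not overlap, and within the rich set the value was lowest where microRNA percent was highest. The mean was 17627 ± 23685 CPM in rich libraries and 417579 ± 186424 CPM in the others (SD, n = 3 and n = 23), 23.7-fold lower, and the log2 ratio ran from -6.67 to -4.00 when 1 rich library was left out, with the horse 2 library holding most of the rich signal. miR-451, the red cell microRNA that matures without Dicer, had 1004, 305 and 25.2 CPM in the rich libraries, against 0 to 133565 CPM (median 14879) in the others, 2 of which lay below the lowest rich value.

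Other microRNAs lower than the other median in all 3 rich libraries were let-7a, let-7c, miR-10b, miR-16, miR-26a, miR-92a, miR-192 and miR-423-5p. let-7c, of a family that restrains growth and promotes differentiation, had 4223, 396 and 898 CPM in the rich libraries, against 433 to 75390 CPM (median 21145) in the others. miR-92a, of the miR-17~92 cluster and abundant in red cells, had 13110, 11425 and 9941 CPM, against 288 to 120964 CPM (median 44074). miR-192, typical of liver and gut, was at 0, 0 and 92.7 CPM, against 0 to 28651 CPM (median 4822). The liver microRNA miR-122 had no read in any rich library, where 3 reads would be 11.5, 4.89 and 1.61 CPM, and it had reads in 4 of the 23 others.

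The counts depended on the scale. On reads-per-million (RPM) of the library total, where the denominator holds all reads, 53 of the 91 microRNAs (58.2%) were above every other library in all 3 rich libraries, none was below, and the median log2 ratio was 4.82. RPM is CPM times the microRNA percent that chose the rich libraries, so an upward shift on this scale is built into the choice and is no separate result. miR-21 had 13700, 32063 and 46792 RPM in the rich libraries, against 8.09 to 2848 RPM (median 94.3) in the others. miR-486-5p had 2619, 1001 and 108 RPM in the rich libraries, against 307 to 10142 RPM (median 936), so it overlapped with the others, at a log2 ratio of -0.32. miR-451 likewise had 58.8, 40.0 and 4.70 RPM in the rich libraries, against 0 to 209 RPM (median 36.6) in the others. On this scale miR-486-5p and miR-451 of the rich libraries lay in the range of other plasma or below it. Per spike-in read, which also rises with the microRNA share, 45 of the 91 were above every other library and none below.

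Scaling by TMM, which sets the bulk of microRNAs equal between libraries, moved the values again. The TMM factors of the rich libraries were 1.58 to 1.62, and those of the others spread from 0.0480 to 4.60. With it the median log2 ratio was -0.92 over those of the 91 with a read in the rich libraries, and 32 were higher. Above every other library only miR-125a-5p stayed, while miR-486-5p stayed below. miR-21, whose log2 ratio of mean CPM was 1.63, had -0.55 with TMM, while miR-221 had 1.46. Levels are divided by the factor, so a factor as low as 0.0480 strongly raises the values of its library within the mean of the others. The direction for miR-21 thus depends on the scale, and the part of single libraries in that change was not tested.

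**Figure D3:**
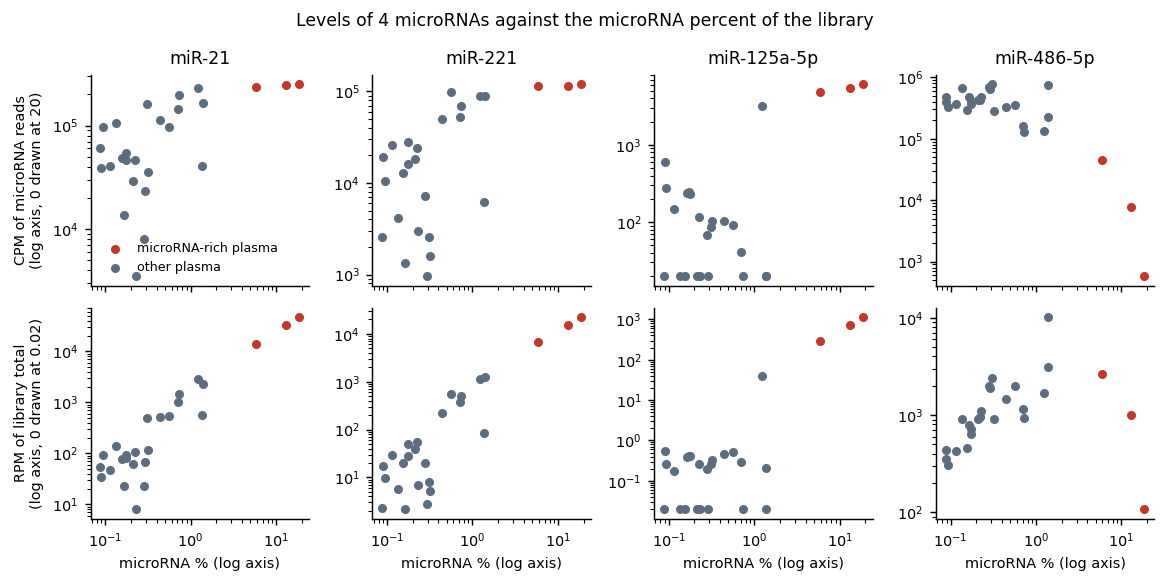
CPM of microRNA reads (top row) and RPM of the library total (bottom row) of miR-21, miR-221, miR-125a-5p and miR-486-5p against the microRNA percent of each plasma library, all on log axes, with the 3 microRNA-rich libraries in red and the 23 others in grey and values of 0 drawn at 20 CPM or 0.02 RPM. Among the rich libraries miR-486-5p is lowest in horse 8 on both scales, at 582 CPM and 108 RPM, while miR-21 stays between 233673 and 251079 CPM.

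MicroRNAs were also grouped by the cell types and families in which they are known. The lists hold microRNAs already named above, such as miR-486-5p, miR-221 and miR-21, so their shares are no separate result. The erythrocyte list (miR-486-5p, miR-486-3p, miR-451, miR-144, miR-16, miR-25 and miR-92a) took 6.43%, 3.37% and 2.27% of microRNA reads in the rich libraries, against 15.3% to 78.8% (median 51.9%) in the others. None of its 7 members was above the other median in all 3 rich libraries and 4 were below, where 59.3% and 11.0% of the 91 were. Its median log2 ratio was -2.05 against -0.36 over the 91. Both medians leave out microRNAs with no read in any rich library, miR-486-3p among them. Without miR-486-5p, the rest of the list took 1.96% to 2.61% in the rich libraries, inside the 0.104% to 22.9% (median 8.29%) of the others. The whole list thus lay below all others through miR-486-5p. On the library total the list had 3767, 4422 and 4228 RPM in the rich libraries, inside the 371 to 10821 RPM of the others.

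The platelet list took 19.9%, 22.6% and 22.9% of microRNA reads in the rich libraries, against 0.415% to 20.4% (median 4.00%) in the others. All 6 of its members with at least 500 CPM (miR-126-3p, miR-126-5p, miR-221, miR-222, miR-223 and miR-24) were above the other median in all 3 rich libraries, where 59.3% of the 91 were, with a median log2 ratio of 1.87. The list was drawn up with miR-191, which was not matched to the horse name miR-191a, so miR-191a is not counted in it. miR-191a too was above the other median in all 3 rich libraries, but its log2 ratio of mean CPM was -0.38. The most platelet- and myeloid-abundant member of the platelet list, miR-223, was low, at 396, 48.9 and 45.0 CPM, and the list's share came chiefly from miR-221. The endothelial list, which shares miR-126 with it, took 5.64% to 7.39%, against 0.0779% to 8.81% (median 1.85%). The mesenchymal list, which holds miR-10a, miR-10b, miR-99a, miR-100, miR-125b-5p, miR-143, miR-145, miR-214, miR-218 and the miR-199 family, took 11.6% to 13.0%, against 0.286% to 14.7% (median 3.82%). Of its 10 members above 500 CPM, 9 were above the other median in all 3 rich libraries, beside the 59.3% of the 91, and miR-10b was below it in all 3. The 9 include miR-199a-3p and miR-199b-3p, which are not read as independent. Their counts differed by at most 0.614% in the rich libraries and 0% in the others. miR-221 and miR-222 together took 13.8% to 15.1%, against 0.180% to 12.5% (median 2.00%), and the inflammation list, which is nearly all miR-21, took 23.6% to 25.5%, against 0.375% to 23.5% (median 5.10%).

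Smaller lists lay on either side of the other median. The miR-29 family took 2.86% to 3.05% in the rich libraries, against 0.00948% to 5.81% (median 0.0866%) in the others, and microRNAs of the imprinted DLK1-DIO3 region took 1.77% to 2.77%, against 0.0273% to 4.15% (median 0.418%). The miR-23/27/24 clusters took 4.46% to 4.84%, against 0.0519% to 12.2% (median 3.13%), and the lymphocyte list took 2.76% to 4.00%, against 0.0594% to 4.78% (median 2.03%). Lower than the other median in all 3 rich libraries were the let-7 list with 1.46% to 1.91%, against 0.104% to 10.7% (median 3.36%), the miR-17~92 list with 2.81% to 3.57%, against 0.0519% to 14.2% (median 5.81%), the myeloid list with 0.237% to 0.265%, against 0% to 4.16% (median 0.775%), and the liver list with 0% to 0.0128%, against 0% to 3.60% (median 0.488%). The members of these lower lists with at least 500 CPM did not all go down. Above the other median in all 3 rich libraries were 2 of 5 in the let-7 list, 4 of 7 in the miR-17~92 list, 3 of 4 in the myeloid list and 0 of 2 in the liver list. Below it in all 3 were 2, 1, 0 and 1 members, where 59.3% of the 91 were above and 11.0% below. The miR-30 list straddled the other median of 0.478%, with 0.159% to 0.530%. Skeletal muscle, epithelial, chondrocyte and neural lists took at most 0.188% of any rich library. The part of any cell type in these shares was not tested.

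**Figure D4:**
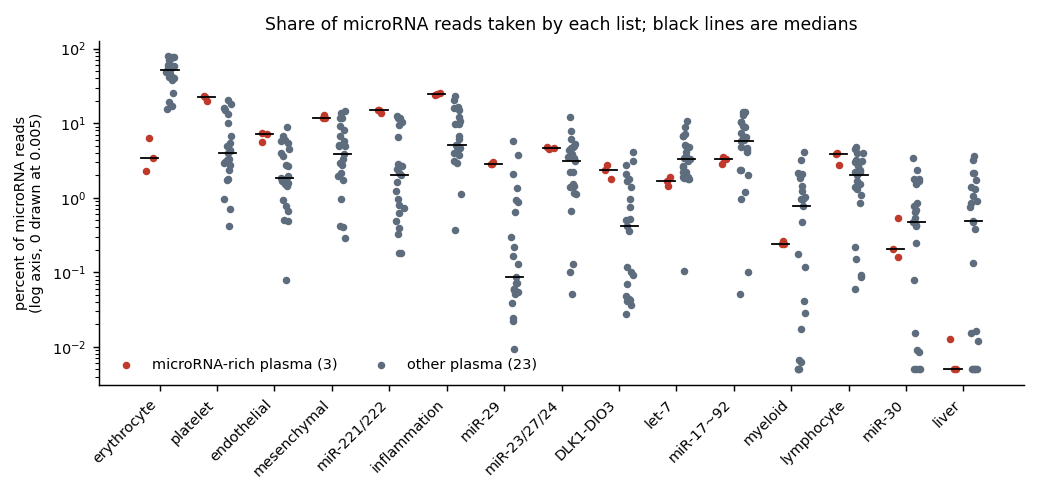
Percent of microRNA reads taken by each of 15 lists, on a log axis, with the 3 microRNA-rich libraries in red left of the 23 others in grey and a black line at each median. The erythrocyte list lies at 2.27% to 6.43% in the rich libraries, below all others (15.3% to 78.8%), while the lists of miR-221 with miR-222 and of inflammation lie above all others.

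Some of the other libraries came close to the rich profile. The mean Pearson correlation with the rich libraries was 0.798 for horse 6 at time point 42, 0.748 for horse 2 at time point 49, 0.703 for horse 6 at time point 49 and 0.682 for horse 4 at time point 63, with microRNA at 1.24%, 1.39%, 0.710% and 0.732% of reads. Their microRNA reads were 78857, 66988, 48496 and 44470, where the median of the 23 others was 13070. Shallower libraries carry more counting error, and the part of read number in this likeness was not tested. These 4 had the lowest miR-486-5p of the others, with 135587, 225175, 163539 and 127884 CPM, and miR-21 made up 14.3% to 23.0% of their microRNA reads. Horse 2 at time point 35 did not follow them. It had 1.37% microRNA and 52751 microRNA reads, but miR-486-5p made up 73.9% of its microRNA reads.

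Whether single microRNAs move with microRNA percent was then tested without the rich libraries, within the 23 others and within synovial fluid, by the slope of the TMM-scaled level on log2 of microRNA percent with horse as a block. The microRNA sum is the numerator of the percent and the denominator of the level, so the 2 are coupled by construction. In the 23 others, 1 of 74 microRNAs had a positive slope (1.35%) and 1 a negative one (1.35%) by edgeR's quasi-likelihood test at an adjusted p of 0.05, and 17 had an unadjusted p under 0.05. miR-138, known from neurons and from hypoxia signalling, had a slope of 3.64 ± 0.91 per doubling of microRNA percent (log2, SE; adjusted p = 0.0196), but it had reads in 5 of the 23 libraries. miR-30e, of the miR-30 family, had a slope of -2.56 ± 0.73 (adjusted p = 0.0388) with reads in 12 libraries, and 49.0% of those reads lay in horse 8 at time point 42. Neither remained called without horse 2 or without horse 6, without the library nearest the threshold, horse 2 at time point 49, without the 2 libraries of low spike-in share, with no replicate block or with time point added, and these fits had 0 or 1 calls. In the first 3 of these fits, and in that with no block, miR-138 fell under the count filter and was not tested. The slopes that could be fitted kept their sign. That of miR-30e was -2.06 without horse 2, -2.18 without horse 6, -2.45 without the nearest library, -2.45 without the libraries of low spike-in share, -2.28 with no block and -1.57 with time point added. That of miR-138 was 3.41 without the libraries of low spike-in share and 3.06 with time point added. With microRNA reads per spike-in read as covariate, miR-138 had 1.79 (edgeR adjusted p = 0.0186) and miR-30e had -1.38 (adjusted p = 0.0756). With DESeq2, miR-138 had 1.65 (adjusted p = 0.459) and miR-30e had -3.01 (adjusted p = 0.000102).

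None of miR-486-5p, miR-21, miR-221 and miR-451 passed this test among the others as fitted. miR-486-5p had a slope of -0.36 ± 0.39 (edgeR adjusted p = 0.584), miR-21 of 0.56 ± 0.43 (adjusted p = 0.440), miR-221 of 0.60 ± 0.34 (adjusted p = 0.264) and miR-451 of -1.17 ± 0.46 (adjusted p = 0.134), and miR-125a-5p had too few reads to be tested. miR-21 passed in 2 alternatives, with microRNA reads per spike-in read as covariate (slope 0.64, edgeR adjusted p = 0.0186) and without horse 2 (slope 1.20, adjusted p = 0.0364). miR-451 also passed in 2, with DESeq2 (slope -1.23, adjusted p = 0.00836) and with the spike-in covariate (slope -0.99, edgeR adjusted p = 0.0215). As fitted, miR-99a had a slope of 0.92 ± 0.42 (edgeR adjusted p = 0.175) and let-7c of -0.75 ± 0.34 (adjusted p = 0.175). With no replicate block miR-99a passed (slope 1.20, edgeR adjusted p = 0.0297). None of the 6 tested members of the erythrocyte list and none of the 6 of the platelet list passed, with median slopes of -0.40 and 0.62 against 0.23 over all 74. One member of the miR-30 list, miR-30e, was the only list member called in plasma.

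In the 52 synovial fluid libraries, 8 of 139 microRNAs had a positive slope (5.76%) and 1 a negative one (0.719%), with 24 at an unadjusted p under 0.05. The positive ones were miR-149 (5.31 ± 0.72, edgeR adjusted p = 2.79e-07), miR-15a (4.53 ± 1.07, adjusted p = 0.00303), miR-324-5p, miR-9021, miR-106a, miR-195, miR-1839 and miR-671-3p, and the negative one was miR-34c (-2.58 ± 0.65, adjusted p = 0.00619). All were sparse, with reads in 4 to 13 of the 52 libraries. miR-486-5p had a slope of -0.17 ± 0.16 (adjusted p = 0.656), miR-21 of -0.09 ± 0.12 (adjusted p = 0.773) and miR-221 of -0.30 ± 0.22 (adjusted p = 0.513). With DESeq2 there were 6 calls, of which 2 were among the 9, and miR-149 (adjusted p = 0.431), miR-15a (adjusted p = 0.0672) and miR-34c (adjusted p = 0.266) were not called. Leaving out horse 8 reduced the calls to 4, of which 1 was among the 9. The test of the difference between the plasma and synovial slopes, in 1 fit of both fluids, passed in 7 of 150 microRNAs. For miR-221 the difference was 1.17 ± 0.38 (edgeR adjusted p = 0.0505), for miR-21 it was 0.76 ± 0.27 (adjusted p = 0.0667), and for miR-486-5p it was 0.16 ± 0.30 (adjusted p = 0.877).

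**Figure D5:**
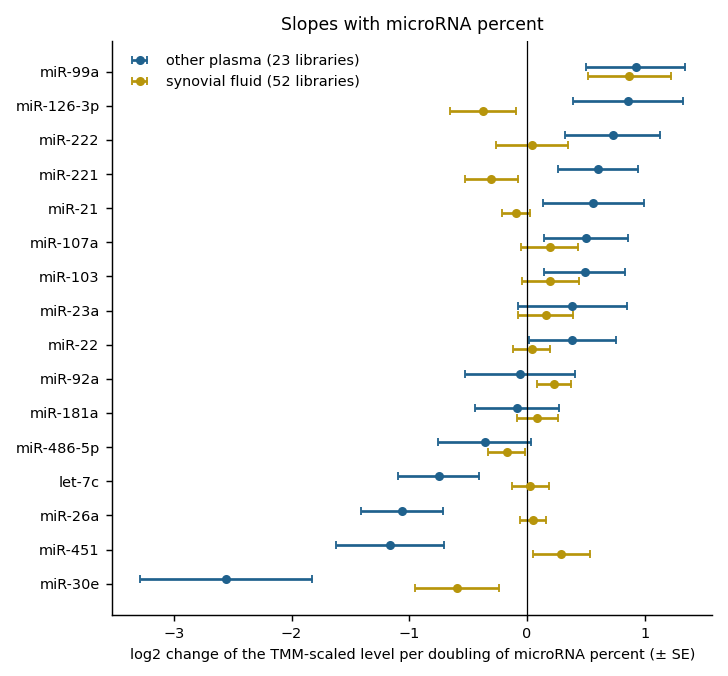
Change of the TMM-scaled level on the log2 scale per doubling of microRNA percent, with its standard error, for the leading plasma microRNAs tested in both fluids and for miR-30e, in the 23 other plasma libraries (blue) and the 52 synovial fluid libraries (yellow). Of the plotted slopes only that of miR-30e in plasma, -2.56, passed the adjusted threshold.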

How the data were processed

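Small RNA of extracellular vesicles was sequenced from plasma and synovial fluid of 4 horses, with the TriLink CleanTag kit per the labels' protocols. Cutadapt, Bowtie, edgeR and the genome build EquCab3.0 appear in the submitters' processing notes, without settings, and the treatment of reads that match several near-identical microRNAs is not stated there. The deposited tables give read counts for 690 microRNA names and the UniSp spike-ins, the authors' RPM of a library total, and a deposited column scaled to the microRNA sum. RPM served only to recover the library total, and spike-ins stayed out of library sizes. The other column was not used beyond a check of its divisor, which differed from the microRNA sum by 0 reads.

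MicroRNA percent is 100 times the microRNA sum over the library total. Rich and other plasma were compared by CPM of the microRNA sum, by counts of features whose 3 rich values lie above or below all 23 others among features with a mean of at least 500 CPM, and by list shares over 19 lists. Slopes were fitted with edgeR 4.0.16 in R 4.3.3 (quasi-likelihood test, TMM, filterByExpr with a count minimum of 10, horse as block, joint added in synovial fluid, Benjamini-Hochberg at 0.05), with DESeq2 1.42.0 as an alternative. Python 3.11.15 made the descriptions. Libraries of 1 horse are repeated samples, and nothing says that they came from separate preparations, so p-values measure the spread between these libraries. The slope scripts were tested on simulated data, where the synovial design, with its many values at 0, also called unchanged microRNAs, so its calls are weaker than their p-values say. The replicate block is the animal itself, which the labels give. The text names the 10 most abundant features per side, features that do not overlap, list members and slope calls; miR-423-5p and the microRNAs with a slope difference between fluids were named after their values were seen. The members and lists were chosen with earlier results of these data known. Messenger RNA and protein markers of vesicles were not analysed here.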

Additional observations from a re-analysis of the deposited data

Results flagged for a closer look

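At the 5 time points with 4 plasma libraries, 6 measures were looked at, 30 sets of 4 values in all, and in 7 of them 1 value stood far from the other 3. The measures were microRNA percent, spike-in share and the CPM of miR-21, miR-221, miR-125a-5p and miR-486-5p. These microRNAs were picked because their rich values did not overlap with those of the others. The 7 values fall on 5 libraries. Chance gives about 1 in 20 independent sets of normally distributed values, but these sets share libraries and are not independent. The percents and CPM were also used without a log, and all 7 values were on the high side, so that rate does not carry over. MicroRNA percent was 1.37 in horse 2 at time point 35, high for its time point. It was also high in horse 2 at time point 0, at 5.86, the value by which that library was chosen as rich, so this is no result. The spike-in share was high in horse 6 at time point 35, at 53.3%. miR-125a-5p was high in horse 2 at time point 0 with 4842 CPM, in horse 6 at time point 42 with 3145 CPM and in horse 8 at time point 56 with 231 CPM. The last of these values is 2 reads, in a library where 3 reads would be 347 CPM. The first, in horse 2, had to be the highest at its time point. miR-125a-5p was picked for lying above all others in the rich libraries, so this is no result either. miR-21 was high in horse 6 at time point 42 with 230011 CPM, the other library nearest to the rich ones. Time points 10 and 63 have 3 plasma libraries each and were not looked at in this way, so the rich libraries of horses 6 and 8 could not be singled out.

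The slope with microRNA percent was called different between other plasma and synovial fluid in 7 microRNAs by edgeR's quasi-likelihood test of the difference. Plasma minus synovial fluid, it was higher for miR-370 (5.34), miR-132 (4.84) and miR-29b (3.24), and lower for miR-15a (-6.88), miR-149 (-4.68), miR-184 (-4.16) and miR-106a (-3.71). Their reads were sparse. In the 23 other plasma libraries they had reads in 2 to 5, and 98.3% of the miR-132 reads there lay in horse 6 at time point 42 and 96.7% of the miR-184 reads in horse 2 at time point 42. miR-149 had 2 reads and miR-106a had 3 in all of those libraries together. In the 52 synovial fluid libraries, miR-29b had reads in 1 and miR-370 in 2. Slopes on so few reads are poorly determined, so these calls do not establish a difference between the fluids.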

How the results depend on the processing

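Of the 91 microRNAs, 3 lay above and 1 below every other library. The count above was 5 of 126 microRNAs at a mean of at least 100 CPM, 2 of 69 at 1000 CPM (miR-125a-5p is lost) and 11 of 234 with no filter. The number of microRNAs looked at thus changed together with the count. Among the 91 it was 53 on RPM, 45 per spike-in read, 1 with TMM and 3 to 4 with 1 rich library left out. Against the 7 others with at least 25000 microRNA reads, chosen after seeing the data, it was 9 of the 91. The count below was 0 on RPM and per spike-in read and 1 otherwise. Leaving libraries out of either side can only keep or raise both counts. The log2 ratio of miR-21 was -0.55 with TMM. The plasma slopes had 2 calls, against 4 with no filter, 10 with DESeq2 (0 up and 10 down, 1 of them among the 2), 7 with microRNA per spike-in read as covariate (3 up and 4 down, 1 of them among the 2), 1 with no scaling, 1 with no replicate block, and 0 with time point added, without the library nearest the threshold or without the 2 libraries of low spike-in share, the last chosen after seeing the data, and 0 to 2 without 1 horse. The plasma slope of miR-486-5p was 0.064 with no filter, 0.041 with no replicate block, 0.31 per spike-in read and -0.51 to 0.12 without 1 horse. The synovial slopes had 9 calls, against 15 with no filter, 6 with DESeq2 (2 of them among the 9), 5 with no replicate block, 3 with time point added, 4 per spike-in read, 2 in either joint alone and 4 to 10 without 1 horse. The synovial slope of miR-21 was 0.15 per spike-in read. The cause of these shifts was not tested. The shallow other libraries, down to 3916 microRNA reads, limit what can be seen at low levels, since 3 reads there are 766 CPM.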
